A study of Homo sapiens with 8 samples.

Results

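The genes described here are the 59 protein-coding genes that were high in M3 alone among the 4 lines of a breast cancer progression model. They were chosen from the measured values. With a gene's level taken as CPM, its count divided by the library's total count and scaled to 1000000 counts, a gene was taken when its lower CPM in the M3 replicates was at least 3 times the highest CPM in the other 6 libraries, and at least 1. The table holds 19320 protein-coding genes, of which 16860 had a count and 11535 reached 1 CPM in both M3 libraries, so the 59 genes are 0.511% of those that could have met the rule. M1 is MCF10A, an immortalized mammary epithelial line that forms no tumors. M2 is MCF10AT1k.cl2, made from MCF10A by transfecting activated T24-HRAS and selecting cells by xenografting, and it forms premalignant lesions. MCF10Ca1h is M3, and MCF10CA1a.cl1 is M4. Both came from occasional carcinomas that arose in M2 xenografts, so they carry the same activated HRAS. M3 forms mostly well-differentiated carcinomas of low grade, whereas M4 forms undifferentiated ones and colonizes the lung. Each line was grown for 8 days as acini in Matrigel, a basement membrane gel, at 8000 cells per ml in medium with 2% horse serum, and 2 biological replicates were sequenced. M1 and M2 received 10 ng/ml EGF, a growth factor of epithelial cells, and M3 and M4 did not, so a difference of M3 or M4 from M1 or M2 cannot be told apart from that of the medium. M3 and M4 shared their medium. Each line is a single derivative, so line and clone cannot be told apart either.

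Genes that are silent in mammary epithelium and active in other tissues are often switched on in tumor lines, and a pattern restricted to a single line of a lineage is commonly studied for the pathways it belongs to or for the chromosome region it comes from. Protease inhibitors, collagens, cadherins and proteases shape the matrix around an acinus and the contacts between its cells. Small GTPase regulators, adaptors and cyclins carry growth signals, and APOBEC3 deaminases edit single-stranded DNA. Genes that lie side by side can rise together when a chromosome segment is gained, when they share a regulatory region, or when related copies share reads, and the data here measure RNA only.

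The 8 libraries had total counts from 69669970 to 107350344, and 3 counts corresponded to 0.0280 to 0.0431 CPM. Values near that level rest on a few counts, which limits the precision of the low values in M1, M2 and M4. Spearman's correlation between replicates, across 13483 genes, was 0.971 for M1, 0.998 for M2, 0.977 for M3 and 0.986 for M4. The summed CPM of 6 basal markers ran from 7693 to 14426 and that of 8 luminal markers from 1358 to 4817, so all libraries carried mammary epithelial markers. Of the markers of other cell types, 4 of 6 leukocyte, 5 of 6 neural, 4 of 5 endothelial, 5 of 8 fibroblast and 3 of 4 adipocyte genes were under 1 CPM in every library. The summed leukocyte markers were 27.7 and 8.69 CPM in the M3 replicates and 10.47 to 56.5 elsewhere, mostly CD68 and CD14, while PTPRC and CD3E were at most 0.0359 CPM. The neural sum was 117 and 61.6 CPM in M3 and 31.0 to 235 elsewhere, nearly all TUBB3, with SOX10 at most 0.0599 CPM. The fibroblast sum was 14.6 and 18.0 CPM in M3 and 6.64 to 74.5 elsewhere, mostly COL1A1 and DCN, with COL1A2 at 0 in all 8 libraries. The endothelial sum was 1.98 and 1.22 CPM in M3 and 0.313 to 3.15 elsewhere, and the adipocyte sum was 0.274 and 0.243 in M3 and 0.224 to 98.2 elsewhere. The column order of the deposited table would place the libraries labelled M1 replicate 2 and M2 replicate 1 in each other's line. As labelled, replicates had the higher correlations, 0.971 in M1 and 0.998 in M2, against 0.959 to 0.963 between any M1 and any M2 library, and the labels are used here. The labels and libraries describe separate biological replicates, and p-values rest on the spread between such cultures, pooled over the 4 lines by fitting all 8 libraries. The lines were not equal in this spread. The SD of the log2 difference between replicates was smallest for M2, at 0.227, and largest for M1, at 0.608. A p-value for 2 lines therefore does not reflect the spread of those lines alone. Since the rule takes the highest of all 6 other libraries, the exchange leaves the 59 genes as they are, but it touches each test that uses M1 or M2.

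The lower limit of the rule fell within a run of similar genes. The genes just inside the 3-fold limit were KCNG1 at 3.18 times the highest other library, PPP4R4 at 3.25 times and COL8A1 at 3.25 times, and those just outside were IL1RAP at 2.96, HLA-DOB at 2.95 and CNNM1 at 2.95 times. At the limit of 1 CPM, HLA-DQB1 and RASSF10, with a lowest M3 CPM of 1.05 each, and CRISPLD1 with 1.15 were inside, whereas HLA-DQB2 with 0.992, SEPTIN3 with 0.969 and OXGR1 with 0.912 were outside. The same rule applied to each other line picked 43 genes in M1, 3 in M2 and 108 in M4, and its mirror image, genes low in M3 alone, picked 18. M3 therefore had more genes of its own than M1 or M2 and fewer than M4, the line of the same origin.

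The promoters of these genes held fewer CpG sites than those of most genes expressed in M3. RefSeq promoters (300 bases, from 250 before to 50 after the start, build GRCh38.p14) matched 39 of the 59 genes by symbol. A single start was taken per gene, and whether it is the start used in these cells was not measured. The class of a gene therefore holds for that window only, and another start of the same gene can differ. A promoter was called CpG-rich when its ratio of observed to expected CpG was above 0.6 and its GC content above 50%. Of the 39, 18 (46.2%) were CpG-rich, against 82.3% of 9403 other genes with at least 1 CPM in both M3 libraries and 63.2% of all 15843 promoters. The median ratio of observed to expected CpG was 0.585 in the 39, 0.849 in the 9403 and 0.763 in all. Genes picked by the same rule in other lines were also below the expressed genes: 55.2% of 29 matched M1 genes and 52.4% of 84 matched M4 genes were CpG-rich. Below are the pairs of matched promoters with the highest M3 levels in each class, so that the difference can be read from the letters. IGFBP2 (chr2:216632578-216632877, plus strand) and S100A1 (chr1:153628184-153628483, plus strand) are CpG-poor, with 8 and 6 CpG sites. SLIT3 (chr5:169301090-169301389, minus strand) and ADAM8 (chr10:133276819-133277118, minus strand) are CpG-rich, with 22 and 29. Capitals mark each CG, and each sequence reads 5′ to 3′ toward the gene.
IGFBP2: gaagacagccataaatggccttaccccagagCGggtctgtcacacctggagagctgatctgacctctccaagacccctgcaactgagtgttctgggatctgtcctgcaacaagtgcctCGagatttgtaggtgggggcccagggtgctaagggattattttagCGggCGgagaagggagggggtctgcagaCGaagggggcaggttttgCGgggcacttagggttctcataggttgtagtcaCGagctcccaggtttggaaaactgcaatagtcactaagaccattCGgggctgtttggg
S100A1: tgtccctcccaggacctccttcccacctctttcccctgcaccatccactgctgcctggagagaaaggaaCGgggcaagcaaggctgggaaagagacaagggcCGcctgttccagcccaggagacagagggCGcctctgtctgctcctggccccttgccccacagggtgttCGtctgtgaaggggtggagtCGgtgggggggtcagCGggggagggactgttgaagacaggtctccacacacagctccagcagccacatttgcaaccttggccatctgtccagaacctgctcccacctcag
SLIT3: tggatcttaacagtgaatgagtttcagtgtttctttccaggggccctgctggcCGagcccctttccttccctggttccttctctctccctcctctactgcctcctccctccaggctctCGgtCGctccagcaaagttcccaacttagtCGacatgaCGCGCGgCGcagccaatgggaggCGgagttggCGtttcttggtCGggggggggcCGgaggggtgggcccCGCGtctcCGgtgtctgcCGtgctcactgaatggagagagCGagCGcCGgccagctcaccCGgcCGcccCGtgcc
ADAM8: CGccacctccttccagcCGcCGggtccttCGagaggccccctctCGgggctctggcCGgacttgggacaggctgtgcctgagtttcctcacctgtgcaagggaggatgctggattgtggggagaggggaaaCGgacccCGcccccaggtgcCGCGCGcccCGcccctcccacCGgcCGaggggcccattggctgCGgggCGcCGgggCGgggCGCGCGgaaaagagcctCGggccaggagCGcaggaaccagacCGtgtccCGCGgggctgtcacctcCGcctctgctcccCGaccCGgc

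Short motifs were searched on both strands in the same promoters. The GC box (GGGCGG), which binds Sp1, was in 19 of the 39 (48.7%), against 71.7% of the 9403 other expressed genes and 58.5% of all. The CCAAT box (CCAAT) was in 15 (38.5%), against 37.03% and 36.4%. The other motifs were in 3 promoters or fewer: TATA box (TATAAA) in 3, against 5.33% of expressed genes and 9.63% of all promoters, TEAD site (CATTCC) in 3, against 10.7% and 11.7%, an interferon response element in 3, against 2.71% and 3.17%, AP-1 site (TGANTCA) in 2, against 4.40% and 5.75%, E-box (CACGTG) in 2, against 10.3% and 8.88%, and the cAMP response element (TGACGTCA) in 0, against 3.37% and 2.59%. A GC box holds a CG pair, so its share is not separate from CpG content. These are counts of letters in a fixed window, and no binding was measured.

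Mean M3 levels of the 59 genes ran from 1.20 to 409.6 CPM with a median of 5.72; 21 were above 10 CPM and 26 were below 5. With the highest other library taken at no less than 3 counts, the ratio of the lowest M3 CPM to the highest other CPM had a median of 4.41, 35 genes were below 5 and 13 above 10. The highest of the other 6 libraries belonged to M4 for 31 genes, to M1 for 20 and to M2 for 8. Ordered by level per kb of exon, which allows genes to be compared with each other, PI3 led with 743 CPM per kb, followed by MRGPRX3 with 142, LEMD1 with 25.0, COL9A3 with 16.6, S100A1 with 15.6 and IGFBP2 with 14.9. RUBCNL was lowest with 0.135. The genes are described next by known role, a grouping made after their values were seen.

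**Figure D1:**
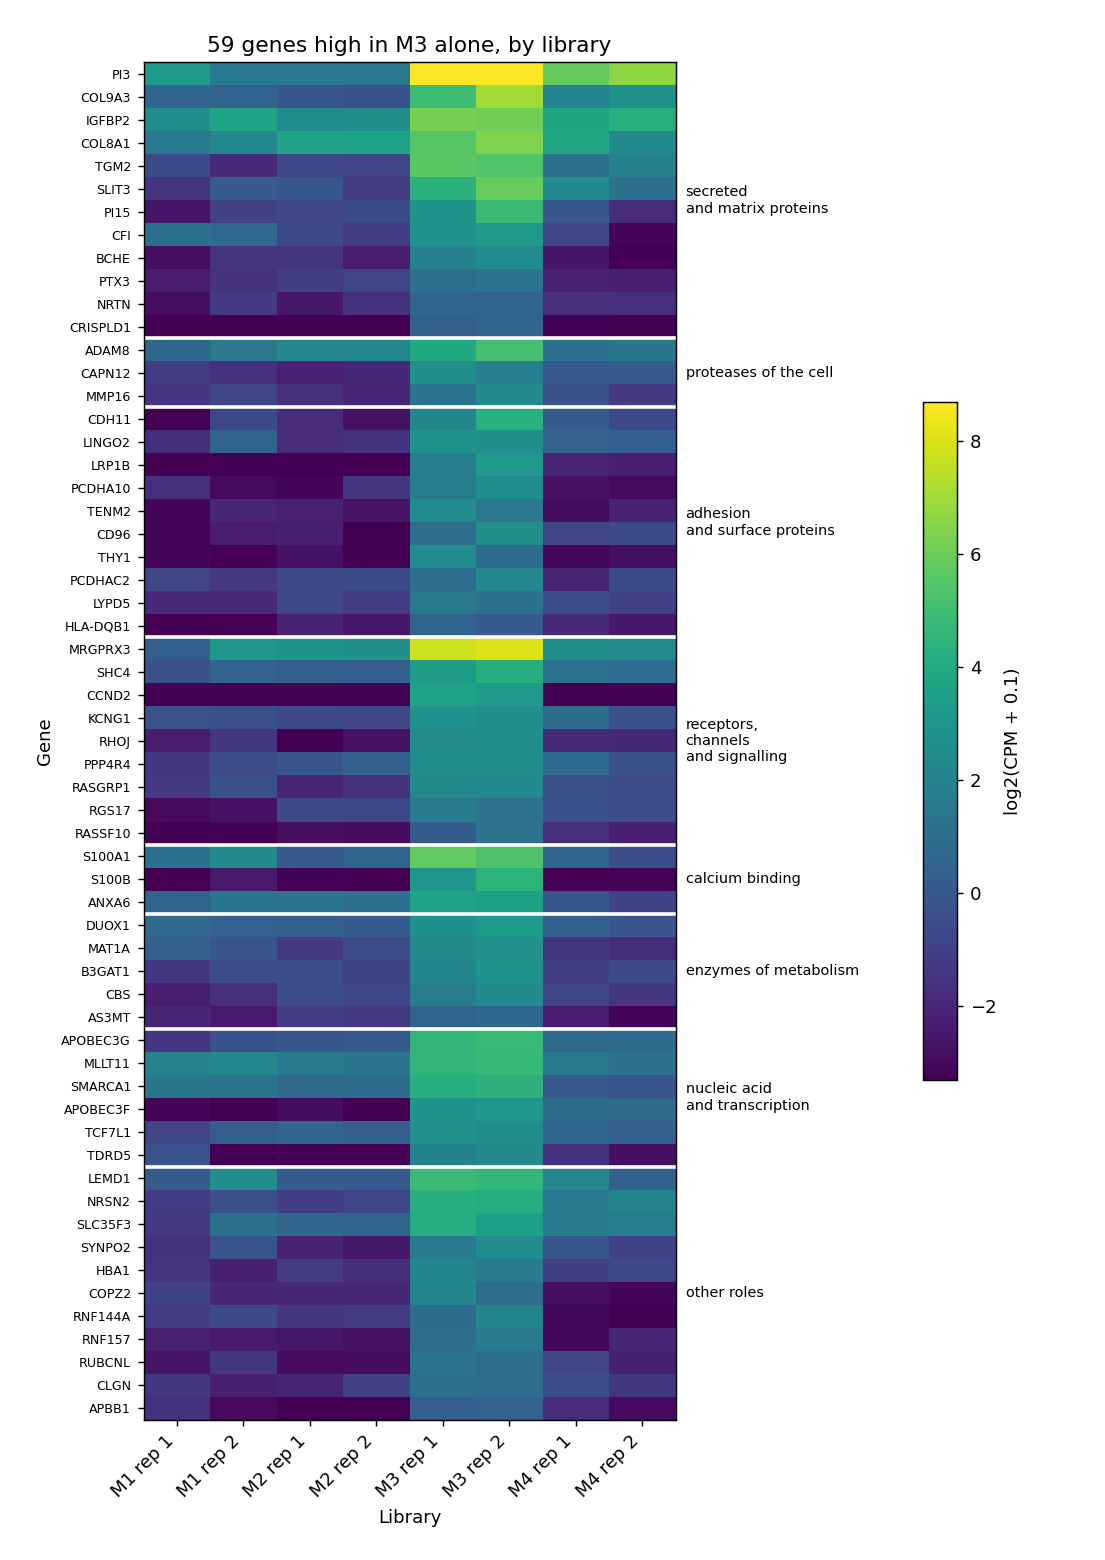
Heat map of log2(CPM + 0.1) for the 59 genes (rows, grouped by known role and ordered within each by mean M3 level) in the 8 libraries (columns, 2 replicates per line). The M3 columns are bright in every row, which the rule ensures, and the rows differ in the other columns: CCND2 is at 0 in all 6 of them, while PI3 reaches 55.5 and 102 CPM in M4.

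Secreted and matrix proteins formed the largest group, with 12 genes. PI3, which encodes elafin, a secreted inhibitor of neutrophil elastase (20:43803543-43805185, plus strand, GRCh37), had 9.92 and 2.86 CPM in M1 and 3.06 and 2.80 in M2, against 55.5 and 102 in M4 and 405 and 415 in M3. Both M4 values lay above all M1 and M2 values, and both M3 values above M4. The libraries are from bulk acini, so a higher level in each cell and a larger share of expressing cells cannot be told apart, for PI3 or for the genes that follow. COL9A3, a chain of the cartilage collagen IX, had 30.6 and 129.8 CPM in M3, with 4.05 and 7.22 in M4 and 0.718 to 1.44 in M1 and M2. COL8A1, a chain of collagen VIII found in vessel walls and basement membranes, had 46.6 and 83.0 CPM in M3 and its next highest value, 14.3, in M4 replicate 1. M2, at 12.2 and 12.5 CPM, was nearly as high, and M1 was lower at 2.83 and 4.78. IGFBP2, a carrier of insulin-like growth factors, had 74.2 and 67.0 CPM in M3 against 5.60 to 19.4 elsewhere. TGM2, the tissue transglutaminase that cross-links matrix proteins, had 48.7 and 43.7 CPM in M3, 2.06 and 3.68 in M4 and 0.180 to 0.545 in M1 and M2. For TGM2 the 3 levels, M1 with M2, M4 and M3, did not overlap. SLIT3, a ligand of Robo receptors in axon guidance, had 21.0 and 60.0 CPM in M3 and at most 5.34 elsewhere.

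Lower in level were PI15 and CRISPLD1, neighbouring genes of secreted proteins of the CAP family. PI15 had 7.45 and 28.5 CPM in M3 and at most 0.820 in the other libraries, and CRISPLD1 had 1.15 and 1.37 CPM in M3, 1 count in M4 replicate 1 and no count in the other 5. CFI, complement factor I, which cleaves C3b, had 7.16 and 8.67 CPM in M3, 2.09 and 1.62 in M1 and 0.0131 to 0.529 in M2 and M4. For CFI both M1 values lay above those of M2 and M4, with an edgeR adjusted p of 0.0504 for M4 against M1 and 0.222 for M2 against M1. BCHE, the esterase butyrylcholinesterase, had 3.81 and 5.44 CPM in M3 and at most 0.255 elsewhere. PTX3, a pentraxin of innate immunity, had 2.07 and 2.36 CPM in M3, and NRTN, a ligand of the GDNF family, 1.39 and 1.32, with at most 0.474 and 0.299 elsewhere.

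Proteases of the cell were 3: ADAM8, a membrane metalloprotease with a disintegrin domain, MMP16, a membrane-type matrix metalloprotease, and CAPN12, a calpain. ADAM8 had 15.8 and 35.6 CPM in M3, and its next highest values, 4.57 and 4.72, were in M2. MMP16 had 2.48 and 5.11 CPM in M3 and at most 0.689 elsewhere. CAPN12 had 5.94 and 3.48 CPM in M3, 0.934 and 0.996 in M4 and 0.117 to 0.332 in M1 and M2.

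Adhesion and surface proteins were 10. LRP1B, a very large receptor of the LDL receptor family, had 3.28 and 8.98 CPM in M3, 0.140 and 0.107 in M4 and no count in the 4 libraries of M1 and M2. THY1, a GPI-anchored surface protein of fibroblasts, neurons and T cells, had 5.48 and 1.77 CPM in M3 and at most 0.0489 elsewhere. Of the fibroblast collagens, COL1A1 had 7.60 and 13.3 CPM in M3 and 6.23 to 26.2 elsewhere, whereas COL1A2 and COL3A1 were at most 0.0783 CPM in all libraries. CDH11, a cadherin of mesenchymal cells, had 4.43 and 20.4 CPM in M3 and at most 0.987 elsewhere. Other genes known mainly from neurons were TENM2, a teneurin, with 5.55 and 2.62 CPM in M3, LINGO2 with 6.88 and 6.54, and the clustered protocadherins PCDHA10 with 3.19 and 5.69 and PCDHAC2 with 1.90 and 4.70. Of these, LINGO2 also reached 1.34 CPM in M1 replicate 2. CD96, an immunoglobulin-type receptor of T and NK cells, had 1.94 and 6.05 CPM in M3, and HLA-DQB1, the beta chain of an MHC class II molecule, had 1.36 and 1.05. LYPD5, a Ly6-domain protein, had 2.70 and 2.23 CPM in M3 and at most 0.578 elsewhere. HLA-DQB1 has close relatives among the class II genes, and the protocadherin alpha genes share their last exons, so their counts depend on how reads were divided.

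Receptors, channels and signalling proteins were 9. MRGPRX3, a G-protein-coupled receptor of the Mas-related family (11:18142502-18160035, plus strand), had 221 and 258 CPM in M3, whereas M1 had 1.11 and 7.78, M2 7.03 and 6.52 and M4 6.22 and 5.42. CCND2, the cyclin D2 that drives entry into the cell cycle, had 12.2 and 9.45 CPM in M3 and not a single count in the other 6 libraries, which makes it at least 219-fold higher in M3 when 3 counts per library are taken as the limit. RHOJ, a small GTPase best known from endothelial cells, had 5.52 and 5.82 CPM in M3 and at most 0.275 elsewhere. Of the endothelial markers, CDH5, VWF and CLDN5 were at most 0.0456 CPM in M3, TEK had 0.353 and 0.0116, and KDR had 1.58 and 1.19, against 2.39 and 2.98 in M1, 0.186 and 0.1005 in M2 and 0.0559 and 0.0131 in M4. Their part in the RHOJ level was not tested. RASGRP1, an exchange factor that activates Ras, had 4.90 and 5.36 CPM in M3, and SHC4, an adaptor of receptor tyrosine kinases, 10.1 and 18.1. RGS17, which shortens signals of G proteins, had 2.96 and 2.27 CPM in M3, with 0.671 and 0.644 in M4, 0.519 and 0.502 for M2 and 0.0248 and 0.0479 for M1. RASSF10 had 1.05 and 2.27 CPM in M3 and no count in M1. The voltage-gated potassium channel subunit KCNG1 had 6.97 and 5.76 CPM in M3 and the protein phosphatase 4 subunit PPP4R4 5.60 and 5.64. Both lay close to the limit of the rule.

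Calcium-binding proteins were 3. S100A1 had 54.4 and 40.2 CPM in M3, with 2.17 and 5.16 in M1 and 0.627 to 1.43 in M2 and M4. S100B, a marker of glia and melanocytes, had 8.17 and 21.5 CPM in M3, 7 counts in M1 replicate 2, 1 count in M2 replicate 1 and no count in the other 4 libraries. SOX10, which is found with S100B in glia and melanocytes, was listed at 0 in both M3 libraries. ANXA6, a membrane-binding annexin, had 12.5 and 11.2 CPM in M3 and 0.866 and 0.434 in M4, while M1 had 1.36 and 2.53 and M2 had 2.48 and 2.01. Here M4 was below both M1 and M2, and for none of these 3 genes was M4 the next highest line.

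Metabolic enzymes were 5. MAT1A, the liver form of the enzyme that makes S-adenosylmethionine, had 5.36 and 6.61 CPM in M3, 1.21 and 0.838 in M1 and 0.197 to 0.603 in M2 and M4. CBS, which joins homocysteine to serine, had 3.33 and 5.04 CPM in M3 and at most 0.617 elsewhere. AS3MT, which methylates arsenic, had 1.34 and 1.52 CPM in M3 and at most 0.355 elsewhere. DUOX1, which makes hydrogen peroxide, had 6.45 and 9.37 CPM in M3, and B3GAT1, which builds the HNK-1 sugar epitope, 4.44 and 7.004. None of the 5 had its next highest value in M4.

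Proteins of DNA, RNA and transcription were 6. APOBEC3G and APOBEC3F, cytidine deaminases that restrict retroviruses, are described with their chromosome cluster. SMARCA1, the ATPase SNF2L that moves nucleosomes, had 18.8 and 20.8 CPM in M3, against 2.51 and 2.35 in M1, 1.69 and 1.79 for M2 and 0.922 and 0.789 for M4, so the lines fell in the order M3, M1, M2, M4 without overlap. MLLT11 had 23.7 and 26.6 CPM in M3 against 2.18 to 4.65 elsewhere. TCF7L1, a transcription factor of the WNT pathway, had 6.74 and 5.45 CPM in M3, and TDRD5, a Tudor-domain protein of the germline, 3.84 and 5.23. TDRD5 also had 0.743 CPM in M1 replicate 1 and no count in M1 replicate 2.

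The remaining 11 genes have other roles. LEMD1, a cancer-testis gene, had 27.0 and 24.9 CPM in M3, 5.83 in M1 replicate 2 and 0.962 to 4.58 in the other libraries. NRSN2, a membrane protein of neurons, had 18.2 and 17.5 CPM in M3, 3.04 and 4.21 in M4 and 0.322 to 0.671 in M1 and M2. SLC35F3, a solute carrier, had 17.3 and 10.9 CPM in M3. The others had mean M3 levels from 1.24 to 4.21 CPM: SYNPO2, an actin-binding protein, COPZ2, a coatomer subunit, RNF144A and RNF157, which carry RING domains, RUBCNL of autophagy, CLGN, a chaperone of the testis, APBB1, which binds the amyloid precursor, and HBA1, alpha globin. HBA1 shares nearly all of its sequence with HBA2, and its count, 4.42 and 3.07 CPM in M3, may hold reads of that gene.

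The M3 replicates differed more for these genes than for others. Of the 59, 15 differed at least 2-fold between the M3 replicates (25.4%), against 5.80% of the 11476 other genes with at least 1 CPM in both. Of the 15, 12 were higher in replicate 2 and 3 in replicate 1. CDH11 was 4.61 times, COL9A3 4.24 times, PI15 3.83 times, CD96 3.13 times and SLIT3 2.86 times higher in replicate 2. THY1 (5.48 and 1.77 CPM), COPZ2 (4.41 and 1.96) and TENM2 (5.55 and 2.62) were the 3 that were higher in replicate 1. Replicate 2 was the higher one for 37 of the 59 genes (62.7%) and for 65.7% of the other genes, so the balance between replicates was like that of all genes while the spread was wider. The rule uses the lower replicate, so each gene passes in both, and whether the wider spread goes with expression level was not tested.

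**Figure D2:**
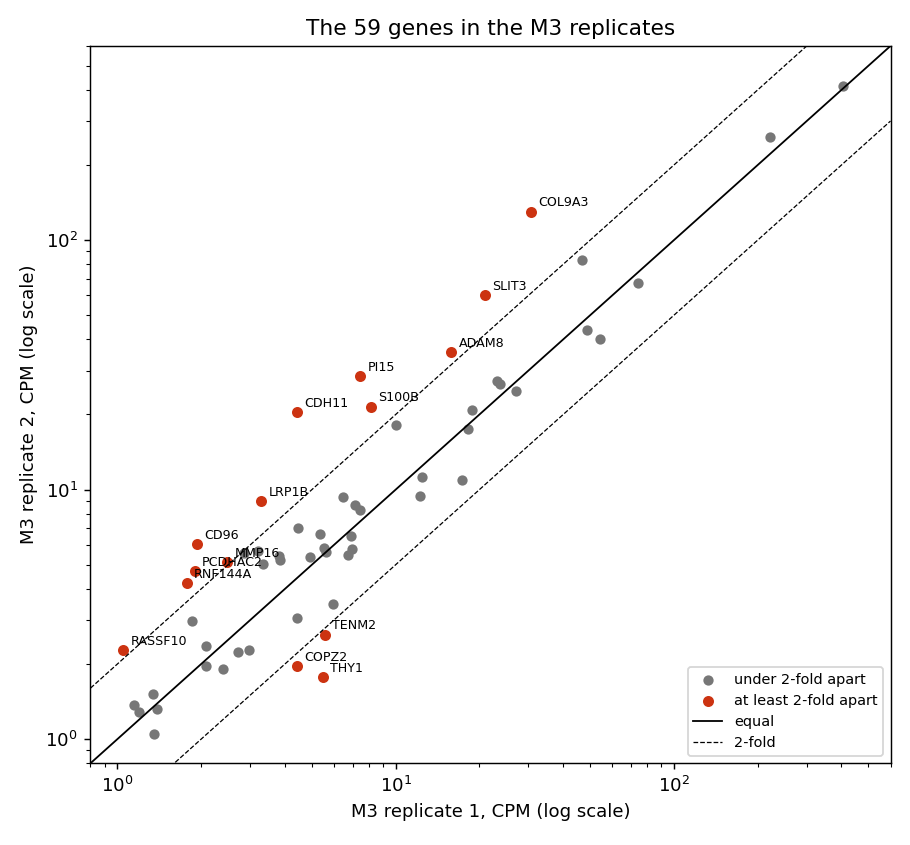
CPM of the 59 genes in M3 replicate 1 (x axis, log scale) and replicate 2 (y axis, log scale), with lines at equality and at 2-fold. The 15 genes at least 2-fold apart are named; 12 lie above the upper dashed line, with COL9A3 (30.6 and 129.8 CPM) the highest of them.

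The rule takes the highest of the 6 other libraries, so it fixes nothing about the order of M1, M2 and M4, and these lines can be tested against each other. M4 was called higher than M1 for 12 of them (20.3%) and lower for 6 (10.2%), where 9.48% of the 18431 genes tested were higher and 11.2% lower (a call is an adjusted p under 0.05 in edgeR's quasi-likelihood test with a change of over 2-fold). The filter on low counts was applied over all 8 libraries, and 10 of the 59 passed it only with the libraries outside this comparison, LRP1B, RASSF10 and HLA-DQB1 among them, so the share over 59 is not read against that of all genes. Of the 49 that passed with M1 and M4 alone, 9 (18.4%) were called higher and 6 (12.2%) lower, beside 9.90% and 11.6% of the 17430 genes that did so. The higher genes were PI3, TGM2, NRSN2, COL9A3, CAPN12, APOBEC3G, APOBEC3F, RGS17, LYPD5, HLA-DQB1, RASSF10 and LRP1B, and the lower ones SMARCA1, RNF144A, MAT1A, COPZ2, ANXA6 and S100A1. PI3, at 55.5 and 102 CPM in M4 and 9.92 and 2.86 in M1, had a log2 fold change of 3.60 ± 0.56 (SE, edgeR adjusted p = 0.00387). TGM2 had 2.94 ± 0.48 (SE, edgeR adjusted p = 0.00377) and NRSN2 2.80 ± 0.40 (SE, edgeR adjusted p = 0.00235). LRP1B, RASSF10 and HLA-DQB1 had no count in M1, and taking 3 counts per library there puts M4 at least 3.37-fold, 4.37-fold and 3.42-fold higher. APOBEC3F had 1 count in M1 against 1.83 and 1.67 CPM in M4, with an edgeR adjusted p of 0.000685. Of the lower genes, SMARCA1 fell by 1.56 on the log2 scale (SE 0.22, edgeR adjusted p = 0.00227), from 2.51 and 2.35 to 0.922 and 0.789 CPM. RNF144A had 0.347 and 0.527 CPM in M1, and 2 and 0 counts in M4. Of the 18 calls, 9 held when each of the 8 libraries was left out in turn; without M4 replicate 2, 11 genes were called. Among the 9 that held were RASSF10 and HLA-DQB1, which were in the test only through libraries outside this comparison. With M1 replicate 2 and M2 replicate 1 exchanged, 8 of the 18 were kept and 1 other gene was called. A fit of M1 and M4 alone called 10.

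Against M2, M4 was called higher for 10 of the 59 (16.9%) and lower for 5 (8.47%), beside 6.98% and 6.94% of all genes tested. Of the 47 that passed the filter with M2 and M4 alone, which leaves out LRP1B, 9 (19.1%) were higher and 5 (10.6%) lower, beside 7.34% and 7.26% of 17323 genes. PI3 had a log2 fold change of 4.70 ± 0.60 (SE, edgeR adjusted p = 0.00284), NRSN2 3.05 ± 0.41 (SE, edgeR adjusted p = 0.00284), CAPN12 2.83 ± 0.47 (SE, edgeR adjusted p = 0.00603), COL9A3 2.76 ± 0.63 (SE, edgeR adjusted p = 0.0219) and TGM2 2.49 ± 0.46 (SE, edgeR adjusted p = 0.00922). These 5 and APOBEC3F were higher in M4 than in both M1 and M2. LRP1B was called in both too, but with 15 and 8 counts in M4 and none in M1 or M2 it was in the test through its M3 counts. IGFBP2 (1.43 ± 0.37 SE, edgeR adjusted p = 0.0307), RASGRP1 (1.68 ± 0.50 SE, edgeR adjusted p = 0.0458) and SYNPO2 (2.55 ± 0.73 SE, edgeR adjusted p = 0.0427) were called against M2 alone. For these genes M2 against M1 was not called (edgeR adjusted p = 0.321, 0.147 and 0.120 in that order). A difference between the comparison with M2 and that with M1 was therefore not shown. The lower genes were SMARCA1, ANXA6 and RNF144A, which were also lower than in M1, and PTX3 and AS3MT. AS3MT had 0.355 and 0.303 CPM in M2 and 0.0883 and 0.0131 in M4. In 17 of the 59 genes both M4 libraries were above all M1 and M2 libraries, and in 5 both were below. The same count was not made over all genes, so neither number is read as a trait of the group. Leaving out either M2 replicate left 4 calls, and without M4 replicate 2 there were 8, so only APOBEC3F, NRSN2, PI3 and RNF144A kept their call through the removal of each of the 8 libraries. M4 and M3 shared the medium without EGF, so for the 7 genes higher in M4 than in M1 and M2, medium and line cannot be told apart.

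M2 differed from M1 for 2 of the 59 genes, both higher (3.39%, beside 2.26% of all genes tested higher and 1.11% lower). Of the 59, 19 had an unadjusted edgeR p under 0.05 and DESeq2 called 9. Shares of all genes were not taken for these 2 counts, so neither is read as a trait of the group. RGS17 had a log2 fold change of 3.75 ± 0.52 (SE, edgeR adjusted p = 0.0104), from 0.0248 and 0.0479 to 0.519 and 0.502 CPM. HLA-DQB1 had no count in M1 and 0.124 and 0.0718 CPM in M2 (edgeR adjusted p = 0.0465), but it was among the 15 of the 59 that did not pass the filter with M1 and M2 alone, and a replicate block gave an edgeR adjusted p of 0.05001. Of the 44 that did pass, RGS17 alone was called (2.27%, beside 2.41% of 17131 genes higher). Exchanging the M1 and M2 libraries removed both calls, with a log2 fold change of -0.027 for RGS17 and -0.92 for HLA-DQB1, neither of them called. The RGS17 call held without each library except the M2 replicates, and the HLA-DQB1 call was lost without any single library. No gene of the 59 was called without either M2 replicate, 6 were without M1 replicate 2, 3 without either M4 replicate and 1 without either M3 replicate. M1 and M2 were grown in the same medium.

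**Figure D3:**
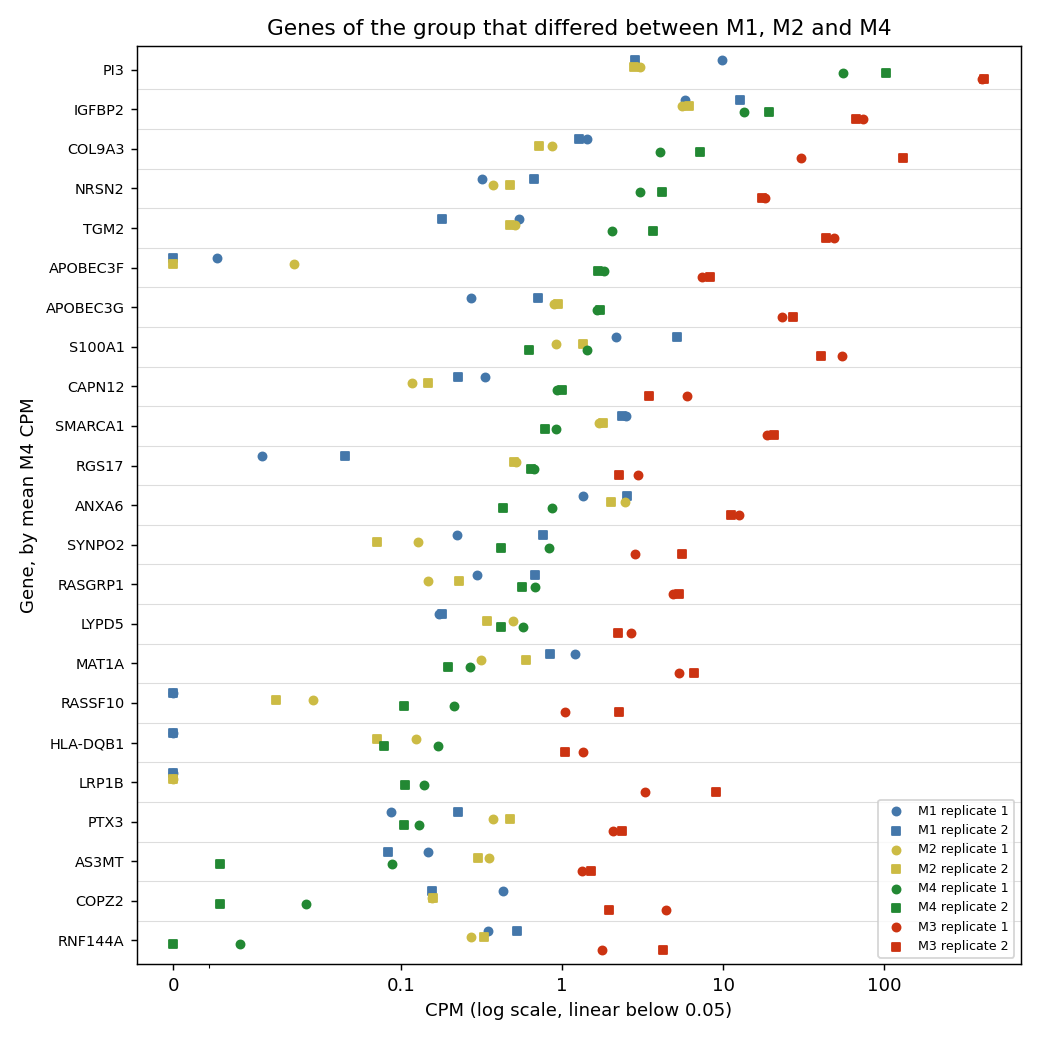
CPM (x axis, log scale, linear below 0.05) of the 23 genes called in at least 1 of the tests between M1, M2 and M4, ordered by mean M4 level, with circles for replicate 1 and squares for replicate 2. For PI3, COL9A3, NRSN2 and TGM2 both M4 points lie between M3 and the M1 and M2 points, and for SMARCA1, ANXA6 and RNF144A both lie left of all others.

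The 59 genes were spread over 21 chromosomes. Chromosome 20 carried 5 of them (NRSN2, TGM2, PI3, KCNG1 and COL9A3), 8.475% of the group and 2.63% of the 11535 genes that could have met the rule. Chromosome 21 carried 2 (CBS and S100B), 3.39% against 0.928%. Chromosomes 1, 5 and 11 also carried 5 each, where 10.4%, 4.70% and 5.70% of the eligible genes lie, and chromosomes 7 and 18 carried none, where 4.59% and 1.49% lie. The other genes of chromosome 20 had medians near 0. Over its 363 other protein-coding genes tested, the median log2 fold change was -0.03 for M3 against M2 and -0.03 for M3 against M4, with 3.31% and 6.89% called higher. On chromosome 21 these medians over 128 genes were 0.01 and -0.03. The highest medians among chromosomes were on chromosome 15 (0.32 against M2 and 0.36 against M4 over 463 genes) and, against M2 alone, chromosome 3 (0.29 over 784 genes, and -0.03 against M4). Chromosome 15 carried RASGRP1, DUOX1 and SHC4.

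**Figure D4:**
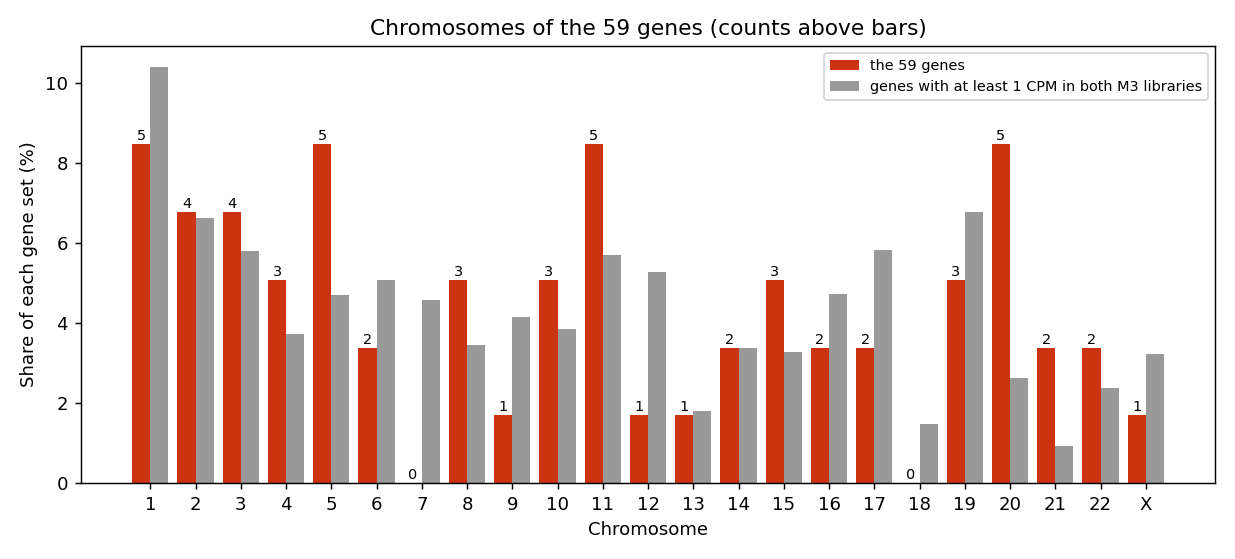
Share (%) of the 59 genes and of the 11535 genes with at least 1 CPM in both M3 libraries that lie on each chromosome, with the number of the 59 above its bar. Chromosome 20 holds 8.475% of the former and 2.63% of the latter, and chromosomes 7 and 18 hold none of the 59.

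Few of the genes lay close together. Only 6 of the 59 (10.2%) had their start within 1 Mb of another, as 3 pairs: APOBEC3F with APOBEC3G, PCDHA10 with PCDHAC2, and PI15 with CRISPLD1. The count was 6 also at 500000 bp and at 2 Mb. Each pair belongs to a single gene family. Under the same rule 4 of 43 M1 genes (9.30%) and 25 of 108 M4 genes (23.1%) lay within 1 Mb of another of their set. Such a share rises with the number of genes in a set, so the lines are not compared by it. The share for sets of other eligible genes was not taken. When the fold limit was lowered to 2, which takes 99 genes, 21 lay within 1 Mb of another, in 10 groups. A group of 3 is PPP4R4 with the serpins SERPINA1 (144 and 141 CPM in M3) and SERPINA5 (35.3 and 23.8) on chromosome 14, and new pairs were DUOX1 with SHF, RNF157 with ITGB4, CAPN12 with LRFN1, COPZ2 with HOXB6, HLA-DQB1 with HLA-DOB, and P3H2 with IL1RAP. Leaving out an M3 replicate also loosens the rule, and the number within 1 Mb was then 22 of 119 genes without replicate 1 and 20 of 96 without replicate 2. Without M1 replicate 1 it was 10, without M1 replicate 2 15, and without M4 replicate 1 14.

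The APOBEC3 pair lies on chromosome 22 (GRCh37), with APOBEC3F at 39436609 to 39451977 and APOBEC3G at 39473072 to 39483748, both on the plus strand and 36463 bp apart. APOBEC3G had 23.2 and 27.3 CPM in M3, 1.66 and 1.71 in M4, 0.889 and 0.947 in M2 and 0.272 and 0.706 in M1. APOBEC3F had 7.45 and 8.29 CPM in M3, 1.83 and 1.67 in M4, and at most 0.0337 in the M1 and M2 libraries. The relatives in the same cluster were not called higher in M3. APOBEC3C, the gene with the most reads of the family, had 62.5 and 60.8 CPM in M3 and 64.6 and 61.5 in M2. APOBEC3B had 8.95 and 7.25 CPM in M3, 17.7 and 17.6 in M4 and 3.89 and 4.16 in M2, and M3 passed the test against neither. APOBEC3A was nearly absent from M3 (0 and 0.0116 CPM) and had 1.28 and 0.956 in M4, and APOBEC3D and APOBEC3H were at most 1.32 CPM in all libraries. Of the 34 other genes tested within 1 Mb of the pair, 3 were called higher in M3 than in M2 and none lower, with a median log2 fold change of 0.19, and 4 were higher and 3 lower than in M4, with a median of -0.09. NPTXR, a neuronal pentraxin receptor, had 6.51 and 17.4 CPM in M3 and 0.930 and 0.876 in M2 (log2 fold change 3.76 ± 0.59 SE, edgeR adjusted p = 0.0137), and SYNGR1, a synaptic vesicle protein, 6.78 and 7.76 and 0.617 and 0.832 (3.40 ± 0.61 SE, edgeR adjusted p = 0.0205). Both were also higher in M3 than in M4. APOBEC3F, APOBEC3G and their relatives are similar in sequence, and reads may be divided among them with error.

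The protocadherin pair lies on chromosome 5, among the clustered protocadherins, of which the alpha genes share their last exons. PCDHA10 (140235468 to 140391932) had 3.19 and 5.69 CPM in M3 and at most 0.249 elsewhere, and PCDHAC2 (140346055 to 140391932) had 1.90 and 4.70 and at most 0.557 elsewhere. Other members of the array differed in direction. PCDHA11 (log2 fold change 2.37 ± 0.42 SE, edgeR adjusted p = 0.0193) and PCDHB9 (2.78 ± 0.47 SE, edgeR adjusted p = 0.0171) were called higher in M3 than in M2, while PCDHGA9 (-3.75 ± 0.73 SE, edgeR adjusted p = 0.0285) and PCDHGA10 (-3.67 ± 0.83 SE, edgeR adjusted p = 0.0453) were called lower. Of 75 other genes tested within 1 Mb, 6 were higher and 2 lower in M3 than in M2, with a median log2 fold change of 0.16, and 2 were higher and 2 lower than in M4, with a median of -0.05. NRG2, a ligand of ERBB receptors, had 3.48 and 3.99 CPM in M3 and 0.284 and 0.689 in M2 (3.03 ± 0.62 SE, edgeR adjusted p = 0.0347). Around PI15 and CRISPLD1 on chromosome 8 (75736769 to 75946793), none of 7 other genes tested was called in either comparison. The median log2 fold change was 0.17 against M2 and 0.13 against M4. The 1 tested gene that lay nearer to CRISPLD1 than to PI15 had 2.57 and 2.13, without a call.

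Neighbours of the whole group were counted next, since a shared region would also carry genes that the rule did not pick. Within 1 Mb of the start of a gene of the group lay 1248 other protein-coding genes with a count, of which 1032 were tested. M3 was called higher than M2 for 53 of them (5.14%) and lower for 13 (1.26%), beside 3.20% and 1.36% of the 14029 protein-coding genes tested outside the group and 2.95% and 1.2% of all genes of any type. Against M4, M3 was called higher for 94 (9.11%) and lower for 43 (4.17%), beside 7.01% and 4.20% of those protein-coding genes and 6.3% and 3.99% of all. The median log2 fold change was 0.09 against M2 and 0.12 against M4, with 0.01 and 0.03 over the protein-coding genes. The shares changed little with distance: 5.59% within 500000 bp and 4.85% within 2 Mb were higher than M2. Without either M2 replicate, 4 neighbours were called higher than M2, without M3 replicate 2 34, and with M1 replicate 2 and M2 replicate 1 exchanged 12. For M3 against M4 the number fell to 27 without M4 replicate 1, 36 without M4 replicate 2 and 60 without either M2 replicate.

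**Figure D5:**
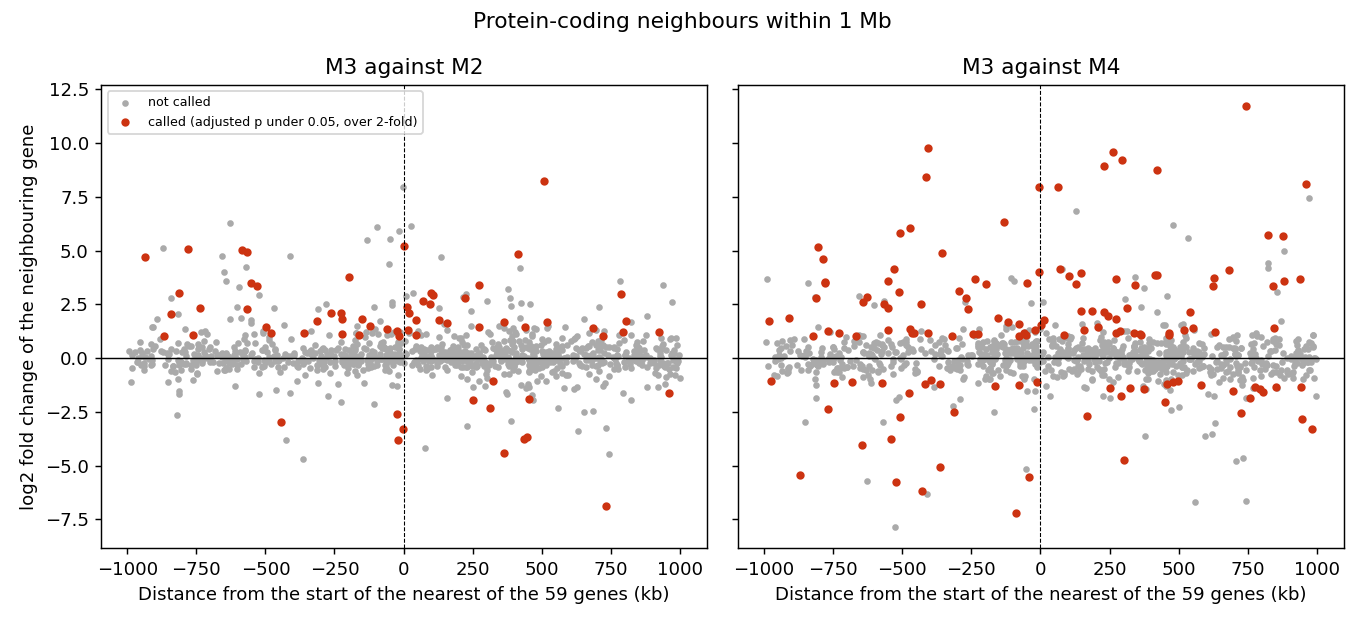
Fitted log2 fold change (y axis) of 1032 other protein-coding genes against their distance in kb from the start of the nearest of the 59 genes (x axis), for M3 against M2 (left) and M3 against M4 (right); red points are called. The red points above 0, 53 on the left and 94 on the right, are spread over the whole distance.

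Of the neighbours, 15 were called higher in M3 than in both M2 and M4, and 1 (ZNF300, near ANXA6) lower than both. No count of genes called in both comparisons was made over all genes. Among protein-coding genes outside the group, more were also called higher than lower in M3, 3.20% and 1.36% against M2 and 7.01% and 4.20% against M4. SPARC, a matrix glycoprotein 529160 bp from ANXA6, had 229 and 362 CPM in M3, 30.9 and 29.9 in M2, 21.1 and 14.8 in M4 and 40.4 and 178 in M1, where M1 replicate 2 came close to M3. SERPINA5, a protease inhibitor 415314 bp from PPP4R4, had 35.3 and 23.8 CPM in M3 and 1.01 and 1.21 in M2, a log2 fold change of 4.83 ± 0.38 (SE, edgeR adjusted p = 0.00147). ITGB4, the integrin of hemidesmosomes and 519166 bp from RNF157, had 2118 and 2429 CPM in M3 and 1055 and 964 in M4 (1.30 ± 0.15 SE, edgeR adjusted p = 0.00317). S100A2, 60036 bp from S100A1, had 12446 and 10711 CPM in M3 and 6461 and 4760.5 in M4 (1.18 ± 0.22 SE, edgeR adjusted p = 0.0137). SHF, an adaptor protein whose gene lies 71242 bp from DUOX1, had 14.1 and 25.6 CPM in M3 and 1.30 and 1.14 in M4 (4.12 ± 0.39 SE, edgeR adjusted p = 0.00159). DUOX1 had 4 neighbours higher in M3 than in M2, as did NRTN, the most for any gene of the group. At least 1 was found for 28 of the 54 genes with a neighbour, a count not made for genes outside the group. DUOXA1, the maturation factor that DUOX1 needs and that starts 5 bp from it, had 0.137 and 0.382 CPM in M3 and was called against M2 (5.23 ± 1.21 SE, edgeR adjusted p = 0.0486) on 12 and 33 counts in M3 and 1 and 0 in M2.

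Antisense lncRNA genes overlap 20 of the 59 genes, 37 in number, and most were hardly read: 27 had under 10 counts in every library and 6 passed the filter. M3 was called higher than M2 for 1 of the 6 and higher than M4 for 2, and lower for 0, beside 2.95% and 6.3% of all genes tested that were higher. In each case the other line had at most 1 count per library. The genes called, ENSG00000248965 and THY1-AS1, passed the filter through their M3 counts alone, so a higher M3 was built into the comparison. Their calls are therefore not read against the shares of all genes. ENSG00000248965, antisense to SLIT3, had 30 and 73 counts in M3, 0 and 0 in M2, 0 and 1 in M1, and 0 and 1 in M4 (edgeR adjusted p = 0.0305 against M2 and 0.0202 against M4). Its replicates differed in the same direction as those of SLIT3. THY1-AS1 had 20 and 18 counts in M3 and none in the other 6 libraries, and it was called against M4 (adjusted p = 0.0429) but not against M2 (adjusted p = 0.0813). NRSN2-AS1, with 55 to 196 counts in all libraries, and USP2-AS1, with 91 to 190, did not pass the test against M2 or M4. Whether the counting used strand is not stated, so reads of SLIT3, THY1 or NRSN2 and of their antisense genes cannot be told apart. Without either M2 replicate or either M3 replicate the number called against M2 was 0.

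Among genes that are not protein coding, 3 met the same rule, all lncRNAs. LINC02188 had 3.81 and 7.87 CPM in M3 and at most 1.05 elsewhere, ENSG00000260412 had 1.56 and 3.76 CPM in M3 and at most 0.373 elsewhere, and MIR3142HG, the host of a microRNA, had 1.09 and 1.05 CPM in M3 and at most 0.264 elsewhere. ENSG00000260412 lies within the span of LINGO2 on the same strand, 1269104 bp from its start, so their reads may not be told apart. The nearest of the 59 genes was 6540433 bp away for MIR3142HG and 21583713 bp for LINC02188.

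Of 13 pathway lists, only the MHC class II list held a gene of the group, HLA-DQB1. The other lists, among them interferon-stimulated genes, cholesterol synthesis, ERK output, squamous differentiation and neuronal genes, held none of the 59. In the order named, these lists had 23, 23, 18, 12 and 6 genes with at least 1 CPM in both M3 libraries. The class II list had 10. The group is 0.511% of all such genes. Lists this short could hold none at that share, so neither 0 nor 1 is read as a trait of the group. The counts that follow stand beside 3.20% higher and 1.36% lower than M2, and 7.01% higher and 4.20% lower than M4, over protein-coding genes outside the group. Of the 14 other class II genes tested, 0 were higher and 1 was lower in M3 than in M2, and 5 were higher and 0 lower than in M4. Of 35 gene families, 8 held a gene of the group. Protocadherins, collagen chains, matrix proteases and S100 proteins had 19, 17, 19 and 15 genes with at least 1 CPM in both M3 libraries. Whether 2 in such a family exceeds the share of 0.511% was not tested. A family without one is not read as a trait of the group. The protocadherins held 2 (PCDHA10, PCDHAC2), and of 48 others tested 4 were higher and 3 lower in M3 than in M2, and 1 higher and 1 lower than in M4. The collagen chains held 2 (COL9A3, COL8A1), and of 26 others 2 were higher and 3 lower than in M2, and 4 higher and 0 lower than in M4. The matrix proteases held 2 (ADAM8, MMP16), and of 39 others 0 were higher and 1 was lower than in M2, while 6 were higher and 2 lower than in M4. The S100 proteins held 2 (S100A1, S100B), and of 15 others 2 were higher than in M2 and 6 higher than in M4, with 0 lower in either comparison. Cadherins held CDH11, solute carriers SLC35F3, potassium channels KCNG1 and the complement and coagulation list CFI. Of 39 other potassium channel genes 4 were higher and 0 lower in M3 than in M2, and 8 and 1 against M4. Of 11 other cadherins none was called against M2 and 2 were higher and 1 lower than in M4. The 442 C2H2 zinc finger genes tested, of which none was in the group, had 5 higher and 18 lower than in M2, and 18 higher and 24 lower than in M4. Of 255 other solute carriers 6 were higher and 5 lower than in M2, and 20 and 14 against M4. Of 17 other complement and coagulation genes 1 was higher and 1 lower than in M2, and 4 and 0 against M4.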

How the data were processed

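RNA from acini of 4 lines, with 2 biological replicates each, was sequenced after poly A+ selection. The authors trimmed paired-end reads with Trimmomatic, aligned them with STAR to hg19 and deposited expected counts per gene from STAR/RSEM on GENCODE v19. These estimated counts are not normalized, and 12.8% of the values are not whole. Tool versions and the use of strand in counting are not given in the sources used here. Totals per library ran from 69669970 to 107350344.

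Lines and replicate numbers came from the sample labels. Each gene's type and position were read from GENCODE release 44 in its GRCh37 version, the same build, and this annotation matched 94.7% of the genes with a count. Counts were rounded and tested with edgeR 4.0.16 in R 4.3.3 (quasi-likelihood test, TMM scaling, filterByExpr, robust estimation, 1 coefficient per line over all 8 libraries). P-values were adjusted by Benjamini-Hochberg over 18431 genes, and a call needed an adjusted p under 0.05 and an absolute log2 fold change above 1. The SE is that implied by the F statistic. The edgeR steps were run on simulated counts for M4 against M1 alone, with the same spread for every gene and line and large changes only. The lines differ in spread here, so that run does not show that single calls are right. Differences of M3 from other lines are not tested for the 59 genes, since the rule used them.

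The 59 genes, the pathway lists and the families were chosen with earlier results of these data known. Genes were named by a fixed rule: the 12 highest in M3, the 12 with the largest ratio, those called between M1, M2 and M4, those in pairs within 1 Mb with their most changed neighbours, those in a list or family, those at the edges of the rule, and those with a called antisense gene. Other genes were named after their values were seen, for their known role. Alternatives were DESeq2 1.42.0, other filters and thresholds, a replicate block, the exchange of 2 libraries, other limits of the rule, and leaving out each library.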

Additional observations from a re-analysis of the deposited data

Results flagged for a closer look

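In 5 of the 59 genes (8.47%, beside 6.94% of all genes tested) M4 was called lower than M2. Of the 47 that passed the filter with M2 and M4 alone, these 5 are 10.6%, beside 7.26% of 17323 genes. They are given because M3 was higher than M2 in them, which the choice of genes fixed. Whether their share differs from that of all genes was not tested. The log2 fold change of M4 against M2 was -4.70 for RNF144A, -2.70 for AS3MT, -1.87 for PTX3, -1.84 for ANXA6 and -1.08 for SMARCA1. Both M4 libraries lay below the M2 libraries in each gene. The difference between M3 and M4 was not tested. RNF144A had 2 and 0 counts in M4, so the size of its change depends on the prior count of the fit. Its call against M2 was kept without each of the 8 libraries, whereas those of AS3MT, PTX3, ANXA6 and SMARCA1 were lost without at least 1 of them.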

How the results depend on the processing

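Calls were counted again under other settings, with the counts as reported being 18 genes for M4 against M1, 2 for M2 against M1, 15 for M4 against M2, 53 and 94 neighbours higher in M3 than in M2 and M4, and 1 antisense gene. An adjusted p under 0.01 gave 9, 0, 6, 15, 37 and 0. Exchanging M1 replicate 2 and M2 replicate 1 gave 9, 0, 8, 12, 46 and 0. Both M2 against M1 calls were lost there, with a log2 fold change of -0.027 for RGS17 and -0.92 for HLA-DQB1. Without a filter on low counts there were 16 calls for M2 against M1, 30 for M4 against M2, 112 neighbours against M2 and 2 antisense genes. DESeq2 called 9 for M2 against M1, 24 for M4 against M2 and 91 neighbours against M2. A 2-fold change in both replicates with 0.001 CPM added gave 13, 26, 121 neighbours and 8 antisense genes for the same comparisons. With 1 CPM added it gave 5 for M4 against M1, 1 for M2 against M1, 6 for M4 against M2, 54 neighbours against M4 and 0 antisense genes. Fitting only the 2 lines compared gave 10 for M4 against M1 and 1 for M2 against M1. No limit on fold gave 154 neighbours against M4, and a filter of 50 counts in 2 libraries left 0 antisense genes. Neighbours within 500000 bp numbered 33 and 59, and within 2 Mb 86 and 166. The cause of these changes was not tested. Shares of all genes were not taken under these settings or those below. None of these counts is therefore read as a trait of the group or of its neighbours.

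The rule picked 99 genes at a 2-fold limit, 21 of them within 1 Mb of another, 24 and 2 at 5-fold, 78 and 8 at a lowest M3 CPM of 0.5, 45 and 2 at 2 CPM, and 94 and 22 when the mean of the M3 libraries was used. Leaving out each library in turn gave 11 to 19 calls for M4 against M1, 0 to 6 for M2 against M1, 4 to 22 for M4 against M2, 4 to 73 neighbours against M2, 27 to 102 against M4, and 0 to 1 antisense genes. The rule then picked 60 to 119 genes, 6 to 22 of them within 1 Mb, since it has fewer libraries to meet.

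Replicates share only a number: the correlation of their differences between lines ran from -0.0858 (M1 and M4) to 0.218 (M3 and M4). A replicate block gave 1 call for M2 against M1 in place of 2, with 17, 15, 51, 86 and 1 for the others. Leaving out a library removes degrees of freedom, and a lone replicate was assumed to vary like the other lines.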
